A study of Mus musculus with 3 samples.

Results

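Weak open chromatin regions that lay close together and were called only in control fetal gut epithelium are described here, with the loci they form. Peaks of 3 ATAC-seq libraries that overlapped by at least 1 bp were merged into 33564 regions. Members were chosen by the peak calls themselves: a region had a control peak and no peak in either library lacking HNF4, lay on chromosomes 1 to 19, scored below 28 in the control, and had at least 2 other control-only regions of any score with midpoints within 50 kb. This rule gave 303 members of the 33564 regions. They fell into 133 loci, a locus being a chain of control-only regions with neighbouring midpoints at most 50 kb apart that holds at least 1 member.

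HNF4A and HNF4G are related nuclear receptors that bind DNA at enhancers and promoters of genes used by absorptive cells of the gut, such as those for fat handling and the brush border. Active enhancers are stretches of DNA from which nucleosomes have been displaced, and genes that define a tissue are often served by several enhancers spread over a long stretch around it. ATAC-seq reads out such stretches, because the Tn5 transposase inserts sequencing adapters where DNA is exposed. A peak caller then reports places where insertions pile up above the surroundings, so a stretch of low exposure can be called in one library and fall short in another.

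All libraries came from midgut epithelial cells of mouse embryos at E16.5 (days after conception), taken from the small intestine and captured on beads against the epithelial surface protein EpCAM. The control library was of genotype Hnf4gCrispr/+, which already carries a mutated copy of Hnf4g, and its genotype label names neither Cre nor a floxed Hnf4a allele. Both double knockout (DKO) libraries, replicates 1 and 2, carried Shh-Cre; Hnf4af/f; Hnf4gCrispr/Crispr, so that Hnf4a is lost only in cells in which the Shh-driven Cre has been active. The labels do not say how many embryos went into a library or whether the DKO replicates were separate litters. The control list held 16977 peaks, against 18268 and 26648 in DKO replicates 1 and 2, and every peak was a window of 601 bp with a whole-number score. Sequencing depth is unknown. Chromosome Y carried 2 control peaks and 24 and 40 DKO peaks, so the control also differed from the DKO libraries in that chromosome's signal. Its part in the results was not tested, and all members lie on autosomes.

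Coordinates are on mm9, the build named in the submitters' processing notes, with 1-based starts. Neither an mm9 genome nor an mm9 gene annotation was used here, so regions are named by position, without sequence or gene. For the same reason peaks at Hnf4a and Hnf4g and at marker genes of the epithelium or of other cell types were not analysed here. With 1 control and 2 DKO libraries the smallest p that exactly permuting the labels could reach is 0.333, so values are given without a test of genotype.

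The selection narrowed as follows. Control-only regions numbered 4373, or 13.0% of all regions, and 4283 of them were autosomal. Among the 12062 autosomal regions with a control peak scoring below 28, 3895 (32.3%) were control-only. Of those weak control-only regions, 303 (7.78%) had the 2 neighbours the rule asks for, 884 had 1 neighbour and 2708 had none. A further 47 control-only regions had enough neighbours but scored 28 or more, with a median of 30 and a maximum of 44. Just inside the score limit lay 15 members at 26 and 5 at 27, and just outside lay 10 clustered regions at 28 and 11 at 29. These counts restate the rule. They depended on the longest DKO list: without DKO replicate 2 the same rule gave 633 members in 269 loci, and with each list cut to the length of the shortest it gave 483 members in 209 loci.

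Members had control scores from 11 to 27 with a median of 18. The middle of the distribution, from the lower to the upper quartile, ran from 15 to 21. As percentile ranks within the control list the scores reached from 0.934 to 71.6 with a median of 34.8. The score limit of the rule keeps members out of the upper part of that list. The 3592 weak control-only regions without 2 neighbours, called unclustered here, had the same score limit and a median score of 16, at a median rank of 22.8. Autosomal regions called in all 3 libraries had a median control score of 24. Scores of 10 to 14 were held by 66 members (21.8%), scores of 15 to 19 by 117 (38.6%), scores of 20 to 24 by 91 (30.0%) and scores of 25 to 27 by 29 (9.57%). Clustered weak regions thus scored somewhat above unclustered ones, with wide overlap between the sets.

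**Figure D1:**
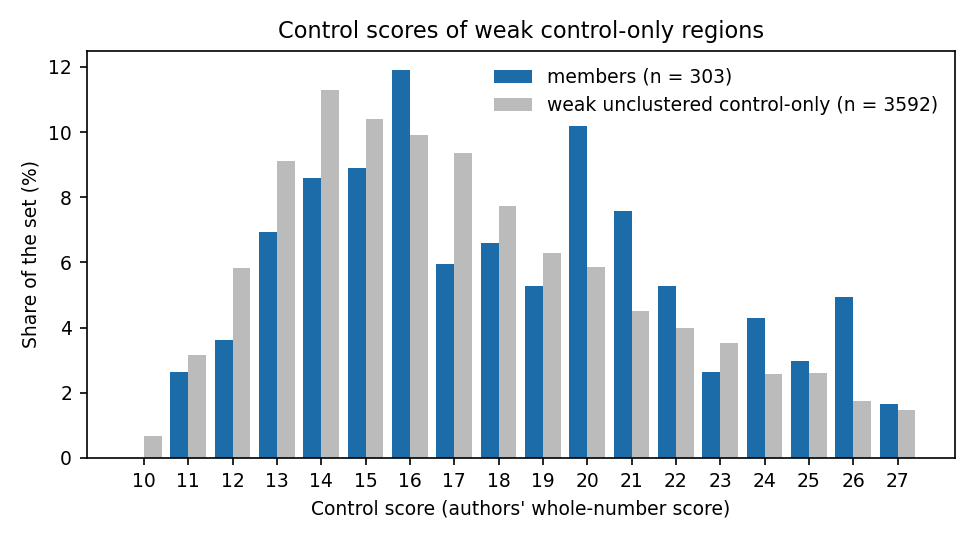
Share of each set (vertical axis, %) at each control score (horizontal axis, the authors' whole-number score) for the 303 members and the 3592 weak unclustered control-only regions. Both sets end below 28 by the rule; the median is 18 for members and 16 for unclustered regions.

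The 5 members with the top score of 27 lay at chr10:99354394-99354994, chr12:40676821-40677421, chr15:3178947-3179547, chr16:51911000-51911600 and chr7:91319564-91320164. Their nearest DKO peaks were 9956, 36627, 21327, 8082 and 18575 bp away. A gap of more than 1 kb was also found for 91.4% of all members and 91.8% of unclustered regions, so this was not particular to them.

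Most loci were small. Of the 133 loci, 107 held 3 control-only regions, 20 held 4 and 6 held 5. Together they contained 431 control-only regions: the 303 members, 52 regions scoring 28 or more, and 76 weak regions at the ends of chains with fewer than 2 neighbours of their own. In 90 loci every control-only region scored below 28, and the other 43 also held at least 1 stronger region, up to a score of 45. The range of scores within a locus had a median of 9 points and reached 30. Most loci were thus weak throughout, and a smaller number joined weak members to a stronger window. The rule puts a weak member in every locus, and 3895 of the 4283 autosomal control-only regions scored below 28 in any case.

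The median span of a locus was 45327 bp, with quartiles at 32241 and 63129 bp, and the longest reached 144710 bp. Between neighbouring control-only regions of a locus the median step from midpoint to midpoint was 19648.5 bp over 298 steps. Only 9 steps (3.02%) were 2 kb or shorter, and 20 (6.71%) were 5 kb or shorter. Steps of up to 2 kb, at which windows could belong to 1 broad element, occurred at 9 loci. When control-only regions up to 2 kb apart were counted once, a setting chosen after the lists were seen, 283 members and 127 loci were left.

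Inside the spans, DKO peaks lay between the control-only windows at most loci. At 48 of the 133 loci (36.1%, Wilson 95% interval 28.4 to 44.5%) no DKO peak lay anywhere between the first and the last control-only region. The others had at least 1. No share was computed for spans of like length elsewhere, so these values are not called high or low. A region called in all 3 libraries lay inside 36 loci, a region called in both DKO libraries and not in the control lay inside 29, and a region called in DKO replicate 2 alone lay inside 49. Such intervals cover counting error over regions or loci only, and neither the variation between embryos nor the dependence between neighbours.

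The 12 loci with the most control-only regions are described one by one, with the score of each control-only window in order of position and then the regions beside it. Locus 1, chr19:21507704-21579884, held windows scoring 16, 20, 15, 25 and 13, of which the last 4 were members. A shared region inside it, chr19:21546584-21547345, scored 14 in the control and 19 in each DKO library. The percentile ranks of these scores were 11.4, 29.5 and 40.2, so the one element called in every library ranked lower in the control. The nearest DKO peaks on either side of the locus were 160855 and 98308 bp beyond its ends, which leaves that shared element as the only DKO signal for a long way.

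Locus 2, chr12:40662239-40750202, had scores of 30, 21, 27, 24 and 40, with the middle 3 windows as members. Its shared region, chr12:40743277-40744169, scored 27 in the control and 16 and 17 in the DKO libraries, at ranks of 71.6, 14.4 and 30.8. Here the shared element and the control-only windows pointed the same way, with the control ahead of both DKO libraries by more than 25 points. A DKO-only region, chr12:40719313-40719997, with scores of 22 and 23, nevertheless lay between the windows.

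Locus 3, chr6:137489632-137546781, scored 17, 40, 40, 25 and 15, and the windows at 17, 25 and 15 were members. No DKO peak lay between its first and last window. Its first window was only 50 bp from a DKO-only region, chr6:137488971-137489581, with scores of 24 and 35. The last window was 13672 bp from another DKO-only region, chr6:137560454-137561089, with scores of 26 and 42. The locus was thus framed on both sides by regions called in both DKO libraries and not in the control, 1 of them nearly touching a member.

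Locus 4, chr4:144550207-144669929, had windows scoring 37, 26, 26, 20 and 14, with 3 members in the middle. The shared region chr4:144589675-144590486 scored 21 in the control against 63 and 57 in the DKO libraries, at ranks of 50.4, 96.1 and 95.2. The nearest member, at chr4:144599797-144600397, lay 10016 bp from it by midpoint. This was the reverse of locus 2: weak control-only windows beside an element that ranked far higher in both DKO libraries.

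Locus 5, chr3:151776375-151842605, scored 29, 32, 17, 24 and 15, and the last 3 windows were members. DKO-only regions alternated with the control-only ones, at chr3:151777664-151778270 (scores of 36 and 36), chr3:151785540-151786189 (23 and 33) and chr3:151832980-151833711 (20 and 32). The first pair of control-only windows lay within 688 and 233 bp of these. Among the members the nearest DKO peak was 1844 bp away. Calls of both genotypes were therefore interleaved along this locus rather than confined to the control.

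Locus 6, chr8:129021303-129166012, was the longest of all 133. Its windows scored 15, 13, 14, 14 and 19, with 3 members in the middle. The shared region inside it, chr8:129137837-129138537, scored 16, 16 and 31, and chr8:129119896-129120545 was called in the control (33) and DKO replicate 2 (61). DKO replicate 1 had its own window, with a score of 55, next to it at chr8:129118209-129118809. All libraries thus had a call at this spot, in windows that did not all overlap.

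Loci 7 to 12 held 4 control-only regions each, all of them members. Locus 7, chr7:91294069-91327833, scored 26, 20, 27 and 14. Its shared region, chr7:91300013-91300988, scored 24, 31 and 24, and the control rank of 62.3 fell between the DKO ranks of 68.1 and 57.7. Nothing at that element separated the control from both DKO libraries.

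Locus 8, chr10:99354394-99389633, scored 27, 16, 22 and 17. The nearest peak of DKO replicate 1 to any of these members was 88785 bp away. Peaks of DKO replicate 2 occurred inside it at chr10:99364951-99365593 and chr10:99381414-99382015. The first of these scored 24 in the control and 15 in DKO replicate 2, at ranks of 62.3 and 19.8. The second scored 32 and 19, at ranks of 82.4 and 40.2. Both of these elements, which the rule did not choose, ranked higher in the control than in DKO replicate 2 and were not called in DKO replicate 1.

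Locus 9, chr5:87765984-87826586, scored 24, 19, 16 and 22. A window of DKO replicate 2 alone with a score of 22 lay 799 bp from the member at chr5:87802176-87802776. Locus 11, chr12:117130390-117177605, scored 18, 15, 25 and 13, and a window of DKO replicate 2 with a score of 12 lay 550 bp from its strongest member, chr12:117150345-117150945. Neither locus held a region shared by all libraries, and the nearest peaks of DKO replicate 1 were 7225 bp from a member of locus 9 and 108040 bp from a member of locus 11.

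Locus 10, chr1:83072659-83143511, scored 15, 19, 22 and 15. Its shared region, chr1:83107484-83108160, scored 18 in the control and 28 and 27 in the DKO libraries, at ranks of 34.8, 61.2 and 65.4. Locus 12, chr13:63339256-63370483, scored 17, 15, 18 and 17 and held no DKO peak. A shared region beside it, chr13:63373858-63374529, scored 29 in the control against 17 and 24, at ranks of 76.6, 19.6 and 57.7. The control thus ranked below both DKO libraries at the shared element of locus 10 and above both at the one beside locus 12.

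**Figure D2:**
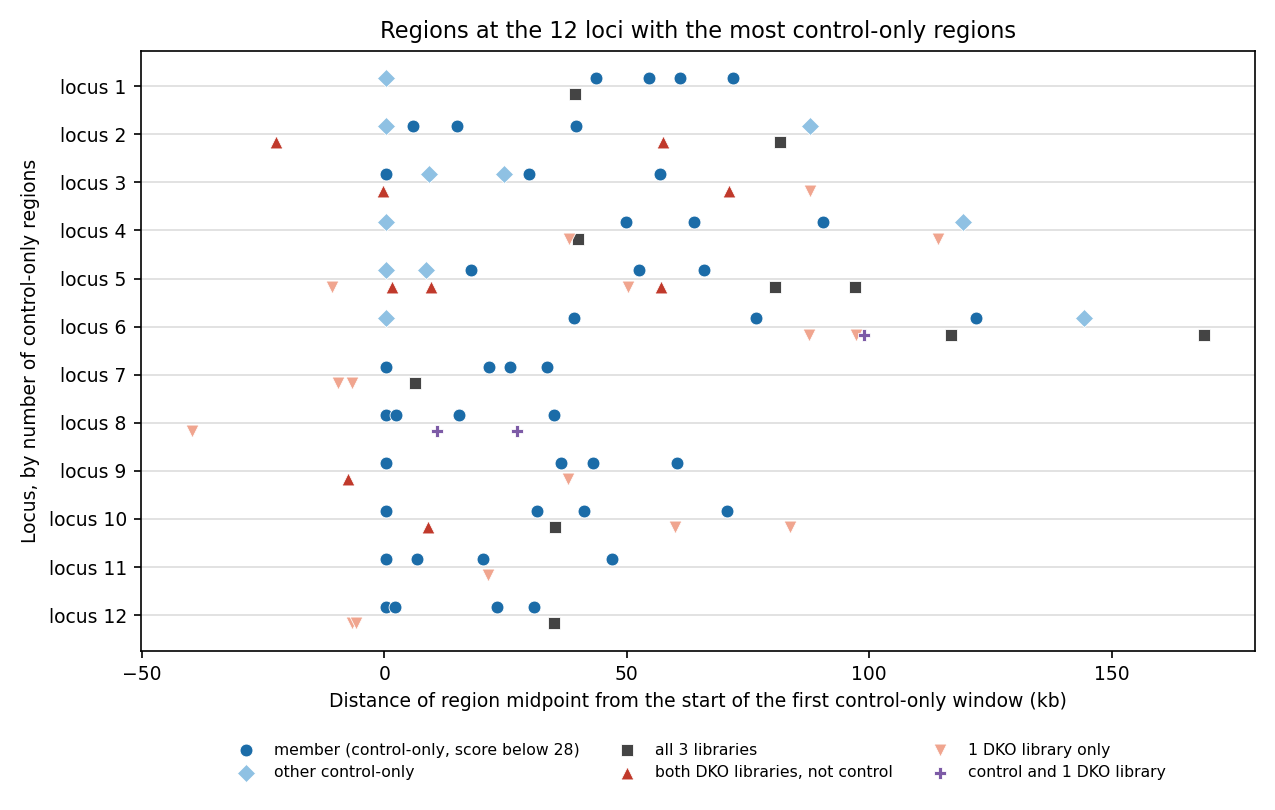
Midpoints of regions at the 12 loci with the most control-only regions (vertical axis, locus number), as distance from the start of the first control-only window (horizontal axis, kb). Control-only regions sit just above each line and all other regions within 50 kb of a member just below it; loci 3 and 12 have no DKO peak between their first and last control-only window, and at locus 5 regions called in both DKO libraries alternate with control-only ones.

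Some small chains lay in long stretches without a DKO peak, though not always far from the nearest one. The longest stretch without a DKO peak around a locus measured 4233752 bp and contained chr7:20535733-20550885, a locus of 3 members scoring from 15 to 25. It held no control peaks but these 3, so that the 4201857 bp above the locus carried no peak in any list. On the lower side the nearest DKO peak was only 16742 bp away, so this locus lay at the edge of its stretch. The next stretch, of 833343 bp, contained chr1:18512912-18524074, with 2 members scoring 24 and 21 on either side of a stronger window scoring 38. Again these 3 were the only peaks of any library in the stretch, and its members, 309341 and 298779 bp from the nearest DKO peak, were the most distant of all. At chr15:94772936-94797558, in a stretch of 711126 bp, both members scored 16 and the window between them scored 29. Over the 48 loci without a DKO peak inside, the stretch had a median of 150734 bp.

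The shortest chains packed their windows closely. At chr16:48403035-48412800 the 3 members, scoring 13, 20 and 25, fitted into 9766 bp, with 1 DKO peak between them. At chr6:40576023-40585992 members scoring 15, 20 and 15 spanned 9970 bp with none.

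To see how far the members lay from DKO calls, the gap from each to the nearest peak of either DKO library was measured. The median gap was 12937 bp, with quartiles at 5707 and 29991.5 bp. For weak unclustered regions the median was 17014.5 bp. A DKO peak lay within 1 kb of 26 members (8.58%, interval 5.92 to 12.3%), and within 1 kb of 8.21% (7.36 to 9.16%) of the unclustered regions. The share with a neighbouring DKO call this close was thus nearly the same in both sets. Within 10 kb the shares were 41.6% (36.2 to 47.2%) and 35.4% (33.9 to 37.0%), and within 50 kb they were 86.1% (81.8 to 89.6%) and 78.9% (77.5 to 80.2%). At these longer distances members had DKO peaks nearby somewhat more often than unclustered regions did.

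**Figure D3:**
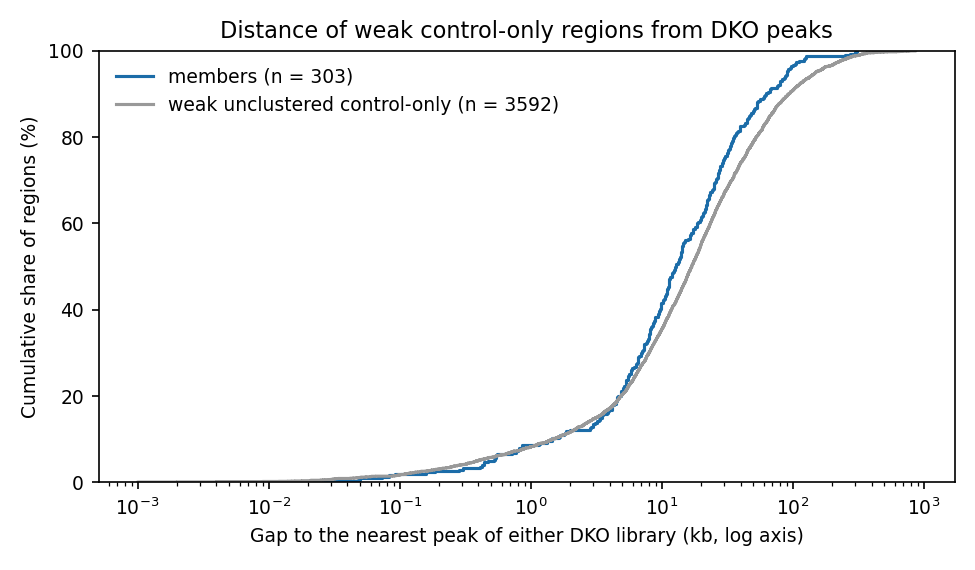
Cumulative share of regions (vertical axis, %) against the gap to the nearest peak of either DKO library (horizontal axis, kb, log scale) for 303 members and 3592 weak unclustered control-only regions. The curves run together up to about 5 kb and then separate, with medians of 12937 and 17014.5 bp.

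The 2 DKO libraries differed in this distance. The median gap was 25342 bp to DKO replicate 1 and 13970 bp to DKO replicate 2, whose list is longer. DKO replicate 2 held the nearer peak for 207 members, DKO replicate 1 for 94, and 2 members were at equal distance. Of the 26 members with a DKO peak within 1 kb, 13 had one from both libraries, 10 from DKO replicate 2 only and 3 from DKO replicate 1 only. The nearest of all, chr4:106477442-106478042 with a score of 16, was 20 bp away from the closest DKO replicate 1 window and 75 bp away from the closest DKO replicate 2 window. Such windows border chromatin that was called in the DKO libraries at almost the same place.

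The surroundings of the members were compared with those of weak unclustered regions. The rule set only the number of control-only neighbours directly. Whether asking for them also picks stretches rich in peaks of other classes was not tested, which limits this comparison and that of the gaps above. A region shared by all libraries lay within 50 kb of 148 members (48.8%, 43.3 to 54.5%) and of 48.0% (46.3 to 49.6%) of unclustered regions. A DKO-only region lay within 50 kb of 34.7% (29.5 to 40.2%) of members against 30.3% (28.8 to 31.8%). For regions called in DKO replicate 2 alone the shares were 49.5% (43.9 to 55.1%) and 40.2% (38.6 to 41.8%). Any region that was not control-only lay within 50 kb of 85.5% (81.1 to 89.0%) of members and 78.5% (77.2 to 79.8%) of unclustered regions. Members thus had a shared element nearby about as often as unclustered regions, and had some other region nearby more often, with intervals that did not overlap for all other classes together or for DKO replicate 2 alone. Members of 1 locus share neighbours, which these intervals do not allow for. Of the 369 other autosomal regions within 50 kb of a member, 32.5% were called in all 3 libraries, 20.9% in both DKO libraries only and 30.9% in DKO replicate 2 only. Over all 28442 autosomal regions that are not control-only these shares were 35.6%, 18.4% and 31.2%, so the mixture beside the members was close to that of the whole genome.

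Shared regions beside the members were then used to ask whether elements called in every library also ranked higher in the control there, a measure the rule did not use. The highest score of each library in a region was turned into a percentile rank within that library. There were 120 shared regions within 50 kb of a member, at 75 of the 133 loci, and their median scores were 25 for the control, 28 for DKO replicate 1 and 31 for DKO replicate 2. The control ranked above both DKO libraries at 37 of them (30.8%, 23.3 to 39.6%), against 22.3% over all 10120 shared autosomal regions and 25.4% (23.6 to 27.2%) beside weak unclustered regions. It ranked below both at 48 (40.0%, 31.7 to 48.9%), against 51.2% over all. With these lists more of the elements beside members ranked lower in the control than higher, and the excess of lower ranks was smaller than over all shared regions. The balance turned once list lengths were equal, as given next.

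The same count was taken for each library, with the deposited lists and with equally long ones. DKO replicate 1 ranked highest at 20.8% (14.5 to 28.9%) of the shared regions beside members, against 27.0% of all shared regions, and DKO replicate 2 at 48.3% (39.6 to 57.2%), against 50.7%. With the latter, 108 shared regions lay beside the same members. The control then ranked above both DKO libraries at 44 of them (40.7%, 31.9 to 50.2%) against 33.1% over all, and below both at 31 (28.7%, 21 to 37.9%) against 37.9%. DKO replicate 1 ranked highest at 32.4% against 38.5% and DKO replicate 2 at 26.9% against 28.3%. In both settings the control was the only library with a higher share beside members than over all shared regions. The same held beside weak unclustered regions, so this was not particular to members. There the control ranked highest at 25.4% (23.6 to 27.2%) with the deposited lists and 36.0% (34.0 to 38.2%) with equally long ones. The interval beside members included the genome-wide share in the second setting, and with the peaks limited to scores of at least 21 only 14 such regions were left, with 21.4% against 20.2% over all.

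**Figure D4:**
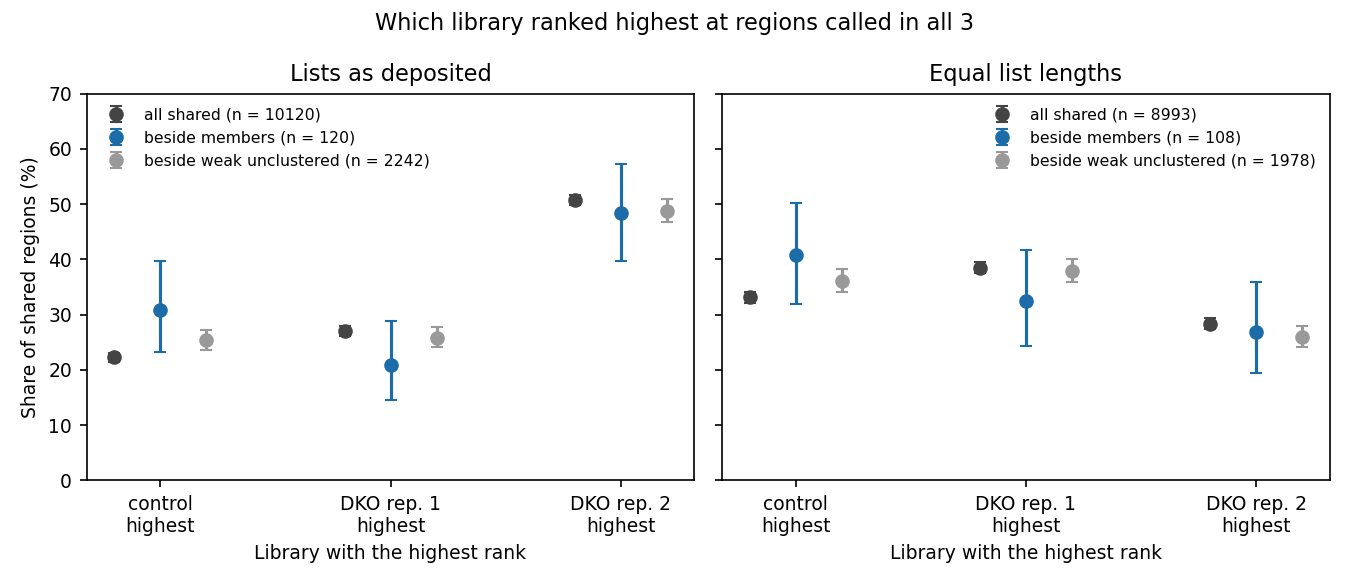
Share of regions called in all 3 libraries (vertical axis, %) at which the control, DKO replicate 1 or DKO replicate 2 had the highest percentile rank, with Wilson 95% intervals, for all shared autosomal regions, those within 50 kb of a member and those within 50 kb of a weak unclustered control-only region. With the deposited lists the control is highest at 30.8% beside members and 22.3% over all, and with equal list lengths at 40.7% and 33.1%.

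Large shifts were rare, and their balance depended on list length. A control rank at least 25 points above both DKO ranks was found at 8 of the 120 shared regions (6.67%, 3.42 to 12.6%), against 2.66% of all shared regions and 3.57% (2.88 to 4.42%) beside unclustered regions. Shifts of the same size in the other direction were found at 14 (11.7%, 7.08 to 18.6%), against 12.2% of all. With equally long lists the counts were reversed, at 14 of 108 higher in the control (13.0%, 7.88 to 20.6%, against 5.48% of all) and 7 lower (6.48%, 3.17 to 12.8%, against 7.86%). Examples of the first kind, besides the one at locus 2, were chr11:30071620-30072228 and chr7:20518330-20518990. The former scored 30 in the control and 21 in each DKO library, at ranks of 78.8, 38.4 and 47.8. The latter scored 20 against 13 and 14, at ranks of 45.5, 2.57 and 14.2. It is the last element below the chain of 3 members that opens onto the longest stretch without peaks. Among the second kind, chr10:66488295-66488997 scored 21 in the control against 43 and 45, at ranks of 50.4, 85.7 and 89.5. At chr17:88859186-88860131 the scores were 12 against 28 and 54, at ranks of 2.95, 61.2 and 94.2. By locus, the median control rank exceeded both DKO ranks at 21 of 75 loci (interval 19.1 to 39.0%) and was below both at 26. This interval included the 22.3% over all shared regions, a share of regions rather than of loci. Counted by locus, the deposited lists thus did not set the control apart from the genome-wide share. The intervals over shared regions treat regions beside the same locus as independent. With the deposited lists, weak control-only chains thus occurred beside shared elements that ranked in either direction.

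Members were found on every autosome, in unequal shares of its control-only regions. Chromosome 4 carried 30 members in 13 loci, 12% (8.54 to 16.6%) of its 250 control-only regions, and chromosome 12 carried 20, or 10.9% (7.19 to 16.3%) of 183. The lowest shares were 2.60% (1.20 to 5.55%) on chromosome 11, with 6 members among 231, and 3.40% (1.46 to 7.71%) on chromosome 15, with 5 among 147. Chromosome 1 had the most loci, 14, at a share of 8.60%. Over all autosomes 303 of 4283 control-only regions were members. The intervals of chromosomes 4 and 11, the highest and lowest shares and named after all were seen, did not overlap. Members come in chains by the rule, however, which these intervals do not allow for. The members of chromosome 11 lay in only 2 loci and those of chromosome 15 in 3.

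Grouping of this kind was also seen among regions called only in the DKO libraries. With no score limit, 350 of 4283 control-only regions (8.17%, 7.39 to 9.03%) had 2 neighbours of their own class within 50 kb, and 432 of 5232 DKO-only regions (8.26%, 7.54 to 9.03%) did. The share was higher in larger classes, at 20.1% for the 10120 regions shared by all libraries and 1.62% for the 2031 called in DKO replicate 1 alone. Control-only chains numbered 138 with at most 5 regions each, and DKO-only chains 179 with up to 7. A control peak was missing from the whole span of 77 DKO-only chains (43.0%, 36.0 to 50.3%), and any DKO peak from 48 control-only chains (34.8%, 27.3 to 43.0%), although the second condition involves 2 lists and the first only 1. Beside the DKO-only chains the control ranked below both DKO libraries at 50.9% (44.3 to 57.6%) of 214 shared regions, against 51.2% of all. It ranked above both at 25.2% (19.9 to 31.5%), against 22.3% of all. DKO replicate 1 ranked highest there at 33.6% (27.7 to 40.2%) against 27.0% of all, and DKO replicate 2 at 41.1% (34.7 to 47.8%) against 50.7%. The balance between the DKO replicates thus differed beside these chains. With equally long lists, which also change the chains, the control ranked above both at 32.0% (22.5 to 43.2%) of 75 shared regions, against 33.1%. The likeness of the classes did not hold at equal list lengths, where 555 of 5409 control-only regions (10.3%, 9.48 to 11.1%) and 169 of 3473 DKO-only regions (4.87%, 4.20 to 5.63%) were clustered. With the deposited lists the groups rarely met: a clustered DKO-only region lay within 50 kb of 7 members (2.31%, 1.12 to 4.69%), the same share as for unclustered control-only regions (2.31%, 1.87 to 2.86%).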

How the data were processed

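ATAC-seq peak lists of 3 libraries (1 control, 2 DKO) were used as deposited by the authors, 1 list per library. The submitters' processing notes name FastQC 0.11.3, Bowtie2 2.2.6, MACS 1.4.1, deepTools 2.4.2 and mm9, with no role or threshold. The score deposited by the authors has no stated meaning or common scale. It was used for the score limit, for ranks within a library and to order peaks and loci. The alternative with peaks scoring at least 21 applied the same cut to every library, as if the scales were equal. Scores of different libraries given side by side are likewise not on a known common scale. Treatment of duplicate reads and any transposase shift are not given in the sources used here. Because a list depends on depth and threshold, a missing peak means only that none was called.

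Regions, neighbours, gaps and ranks were computed in Python 3.11.15 (pandas 2.3.3). The functions were tested on simulated peaks and against bedtools 2.31.1. Wilson 95% intervals came from statsmodels 0.14.6. Loci were ranked by number of control-only regions, then members, then summed score, and the first 12 were described; other named regions are extremes chosen after their values were seen. The members, rules and comparisons were chosen with earlier results of these data known. Planned results on HNF4 binding sequences, start sites and gene lists were not computed without an mm9 reference. Alternatives covered list length, score, overlap, window, neighbour distance and each DKO replicate.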

Additional observations from a re-analysis of the deposited data

How the results depend on the processing

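Against 303 members in 133 loci, equally long lists gave 483 in 209, peaks scoring at least 21 gave 41 in 24, neighbours within 25 kb gave 108 in 58 and neighbours within 100 kb gave 631 in 252. Leaving out a DKO replicate gave 367 to 633 members and 161 to 269 loci, the higher values without DKO replicate 2. All 303 were members again with equally long lists, with 100 kb and without either replicate. That outcome was fixed in advance, because the control list is the shortest and these settings only remove DKO peaks or widen the neighbour distance. Of the 303 members, 238 remained when DKO peaks up to 1 kb away were treated as overlapping and 19 when peaks had to score at least 21. The share of members without a DKO peak within 1 kb was 91.4%, against 91.8% of weak unclustered regions. It was 94.2% with equally long lists, 97.6% with the higher score, 94.4% with 25 kb and 82.9% with windows of 200 bp. By construction it was 100% when peaks up to 1 kb away were treated as overlapping. Leaving out a replicate gave 92.1 to 93.7%. The share for unclustered regions was not computed in these alternatives, so the changes are not particular to members. The control ranked highest at 30.8% of shared regions beside the loci. That share was 21.4% with the higher score, from 3 of 14 regions, and 6.67% when 25 points were asked for. Leaving out a replicate gave 41.8 to 52.0%, against 32.9 and 42.2% of all shared regions; the members, the shared regions and the number of libraries compared all change in that setting. In each of these settings the share exceeded that over all shared regions. The unknown depth limits every count of missing peaks. No paired analysis was possible, because there was 1 control library against 2 DKO libraries and no label pairs them. Alternatives for binding sequences, start sites and gene lists were not run without an mm9 reference.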

Other observations

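Outside the autosomes, 90 control-only regions lay on chromosome X and none had 2 control-only neighbours within 50 kb, while 14 had 1. Of the 47 clustered control-only regions that scored too high to be members, chr7:52967713-52968313 had the highest score, 44, and lay 2068 and 2155 bp from the nearest peaks of DKO replicates 1 and 2. The clustered region at chr9:85303552-85304152, with a score of 30, lay 168 and 85 bp from them.

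The 4 members with 4 control-only neighbours, the most that any member had, lay in loci 1, 2, 3 and 5. They scored 20 at chr19:21551144-21551744, 24 at chr12:40701410-40702010, 25 at chr6:137519214-137519814 and 17 at chr3:151793850-151794450.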
